A study of Mus musculus with 8 samples.

Results

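The region described is the 1.1 Mb of mouse chromosome 12 from 107000000 to 108100000 (GRCm38), which holds *Bcl11b* and the gene-poor stretch beyond its 3′ end. Its members were chosen from the called H3K27ac peaks themselves, as every peak of either list that overlapped these bounds by at least 1 base. This gave 67 of 34553 peaks in wt P5424 cells and 65 of 29902 peaks in ΔIkE120 P5424 cells, or 132 of 64455 peaks over both lists. Since peak positions defined the members, their number and extent are given as a description and carry no test.

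H3K27ac is a histone mark of active promoters and enhancers, and was profiled by ChIP-seq in P5424, a mouse cell line used as a model of T cell precursors. The wt library came from the unedited line. The ΔIkE120 library came from 1 clone of the same line, in which CRISPR/Cas9 removed IkE120, an enhancer upstream of *Ikzf1* on another chromosome, from both alleles. The sources used here do not state whether the cells taken for ChIP-seq had been stimulated. With 1 library per genotype there were no replicates, so no SD or p-value can be given for any difference between genotypes, and the effect of the deletion cannot be told apart from differences between clones or preparations.

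*Bcl11b* encodes a zinc finger transcription factor that T cell progenitors switch on when they commit to the T lineage, and that represses progenitor and natural killer genes, in part through the NuRD complex. Its activation in early thymocytes depends on Notch signalling, Gata3, Tcf7 and Runx factors, and on an enhancer far downstream in the gene-poor stretch. *Bcl11b* lies on the minus strand, so downstream of the gene means toward lower coordinates.

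The labelled cell type was read from promoters with a peak within 1 kb of a start. All 9 T cell precursor genes with a start in the promoter table (*Cd3e*, *Cd3d*, *Cd3g*, *Lck*, *Ptcra*, *Rag1*, *Rag2*, *Tcf7* and *Gata3*) had a peak in both lists. Over all 17492 protein-coding genes with such a start, 47.5% had a wt peak and 47.0% a ΔIkE120 peak. Of the B cell genes, *Ebf1* had a peak in both lists, of 758 bases in wt and 253 bases in ΔIkE120 cells, while *Cd79a* and *Pax5* had none. The myeloid genes *Lyz2*, *Itgam* and *Cebpa* had none in either list. Of 5 ES cell genes, *Pou5f1* had a peak in both lists and *Nanog*, *Zfp42*, *Esrrb* and *Tdgf1* had none. Away from their starts, peaks covered 1712 wt and 1288 ΔIkE120 bases of *Itgam*, 512 and 604 of *Esrrb*, and 389 and 0 of *Pax5*. *Thy1*, *Cd79b*, *Ms4a1*, *Spi1*, *Csf1r*, *Cd14* and *Dppa5a* were not analysed here.

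At the *Bcl11b* start (108003414), H3K27ac was called in both genotypes. In wt cells 1 peak of 1398 bases covered the start, from 108002615 to 108004012. In ΔIkE120 cells the same stretch held 2 peaks, from 108002582 to 108003534 and from 108003764 to 108003979. The annotated gene (107910403 to 108004145) reaches 731 bases beyond this start, so these peaks lay within the annotated gene. Fold enrichment is the peak caller's ratio of ChIP signal to its own background for a peak. It was 1.88 for the wt peak and 1.77 for the longer ΔIkE120 peak. Their −log10 q, which scores a peak against that background after adjustment within its list, was 7.59 and 6.06.

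The start of *Bcl11b* thus carried peaks of low fold enrichment. Among the 8308 protein-coding genes with a wt peak at a start, the median fold enrichment of that peak was 4.17, and 0.169% of genes had a lower value than *Bcl11b*. The corresponding ΔIkE120 median over 8226 genes was 4.31, with 0.0122% of genes lower. When genes were ordered by −log10 q instead, 21.4% stood below *Bcl11b* in wt and 13.5% in ΔIkE120 cells. The wt peak was longer than that of 76.7% of the genes, while the longer ΔIkE120 peak, of 953 bases, was longer than that of 41.0%. Low fold enrichment was not particular to *Bcl11b*. The 9 T cell precursor genes named above had medians of 2.54 in wt and 2.51 in ΔIkE120 cells, also under those of all genes.

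Just upstream of the start lay a pair of short peaks present in both lists. The first ran from 108005112 to 108005526 in wt cells, with a fold enrichment of 1.77, and from 108005065 to 108005537 in ΔIkE120 cells, with 1.87. The second ran from 108005913 to 108006328 in wt cells and from 108005749 to 108006412 in ΔIkE120 cells, with fold enrichments of 1.77 and 1.88. Beyond them no peak of either list was called for 63.1 kb. A site 66.4 kb upstream of the start, from 108069564 to 108070145, then had fold enrichments of 3.53 in wt and 3.36 in ΔIkE120 cells, above the median of each whole list. A short wt peak next to it, from 108070544 to 108070798, had no ΔIkE120 counterpart and lay 123 bases from the nearest one. The last site inside the upper bound ran from 108098391 to 108099051 in wt cells with a fold enrichment of 3.36, and from 108098429 to 108099017 in ΔIkE120 cells with 3.33.

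Inside the gene, apart from the 2 kb next to the start, 8 wt and 7 ΔIkE120 peaks were called over 91.0 kb. They fell into a group near the 3′ end, a pair of sites in the middle and a weak peak close to the start. The group near the 3′ end (107920877 to 107931353) held 5 wt and 3 ΔIkE120 peaks. Its main peak, also the longest of the gene body in each list, ran from 107926582 to 107927774 in wt cells and from 107926427 to 107927546 in ΔIkE120 cells. Fold enrichment there was 1.97 in wt and 2.08 in ΔIkE120 cells, with a −log10 q of 6.70 and 7.74. The 2 wt peaks at the edges of this group, from 107920877 to 107921123 and from 107931119 to 107931353, were the gene-body peaks without a ΔIkE120 counterpart.

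The middle sites lay 38.4 kb from the start. In wt cells they were 2 peaks, from 107963885 to 107964768 and from 107965048 to 107966069, with fold enrichments of 2.51 and 2.42. In ΔIkE120 cells the second was split into peaks of 533 and 328 bases, with fold enrichments of 2.93 and 2.05. All 7 ΔIkE120 peaks of the gene body overlapped a wt peak. The weakest overlapping pair of the region by fold enrichment also lay in the gene, from 108000572 to 108000880 in wt cells, with 1.498 in wt and 1.43 in ΔIkE120 cells. The latter was the lowest fold enrichment of the whole ΔIkE120 list.

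Most peaks lay downstream of the gene. The 910.4 kb from the lower bound to the 3′ end held 53 wt and 52 ΔIkE120 peaks, covering 36786 and 34731 bases, or 4.04% and 3.81% of the stretch. A single further protein-coding gene, the predicted gene *Gm52008* (107111081 to 107112136), lies in it and carried no peak in either list. Over the whole region 51 of 67 wt peaks and 52 of 65 ΔIkE120 peaks overlapped no annotated gene.

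Of the noncoding genes in the stretch, 3 carried peaks. The long noncoding RNA gene *4930465M20Rik* (107723743 to 107735488) held 3 wt and 2 ΔIkE120 peaks, and its start was 392 bases from a wt peak and 388 bases from a ΔIkE120 peak. *Gm33236* (107624198 to 107649915) held 1 site, from 107645433 to 107646213 in wt cells, with a fold enrichment of 4.38 in wt and 4.13 in ΔIkE120 cells. *Gm16086* (107070905 to 107099861) held 3 wt peaks over 1893 bases and 1 ΔIkE120 peak of 826 bases. The long noncoding RNA gene *Gm33341* (107824390 to 107825701) and the pseudogenes *Gm17052* (107418921 to 107419431) and *Gm9006* (107613001 to 107613845) carried none.

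The strongest peak of the region in each list was the same distal site, 819.4 kb downstream of the *Bcl11b* start and outside any annotated gene. It ran from 107183550 to 107184518 in wt cells, with a fold enrichment of 4.47 and a −log10 q of 24.3. In ΔIkE120 cells it ran from 107183542 to 107184486, with 4.31 and 20.6. Of all peaks in the list, 97.6% had a lower −log10 q in wt and 94.1% in ΔIkE120 cells. The site stood alone, with no other peak of either list within 10 kb.

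The next by −log10 q in each list was a site 956.3 kb downstream, from 107046543 to 107047630 in wt cells, with values of 12.1 in wt and 10.5 in ΔIkE120 cells. A site from 107779390 to 107780137, 223.7 kb downstream, came after it in each list, with 8.20 in wt and 8.53 in ΔIkE120 cells. Below these the order differed between lists. In wt cells the *Gm33236* site followed with 7.87, and then a peak from 107119508 to 107120672 with 7.86. In ΔIkE120 cells the main peak near the 3′ end of *Bcl11b* followed with 7.74, and then a peak from 107783835 to 107784516 with 7.30. Neighbours in this lower part of the order differed by under 1 unit of −log10 q, with no replicate to measure their error.

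Peaks were grouped where fewer than 10 kb separated neighbours, which gave 31 clusters. The 5 with most covered bases in wt cells held 36 wt and 30 ΔIkE120 peaks, and 57.9% of the covered bases of wt and 54.9% of those of ΔIkE120 cells. Over these 5 clusters the ratio of ΔIkE120 to wt covered bases was 0.885. It turned to 1.09 without the peaks of each list under its median −log10 q. Since the clusters were chosen by their wt bases, the choice itself can lower this ratio. The largest cluster spanned 51.9 kb, from 107119508 to 107171410, with 11 wt and 10 ΔIkE120 peaks over 10936 and 9625 bases. It lay 832.0 to 883.9 kb downstream of the *Bcl11b* start and contained the longest peak of the region in each list, 1914 bases in wt cells (107124641 to 107126554) and 1781 bases in ΔIkE120 cells (107146714 to 107148494). The next spanned 33.7 kb, from 107752237 to 107785927, with 12 wt and 9 ΔIkE120 peaks over 7610 and 5822 bases. The others were the group near the 3′ end of *Bcl11b* with 2578 and 1920 bases, the *4930465M20Rik* cluster (107722495 to 107735099) with 2572 and 3133 bases, and the cluster at the *Bcl11b* start (108000454 to 108006412) with 2538 and 2726 bases.

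The median fold enrichment was 1.90 in wt and 1.92 in ΔIkE120 cells in the largest cluster, and 2.09 and 2.24 in the next. Between the clusters lay stretches with no peak of either list, the longest of 86.7 kb (107479688 to 107566338) and of 71.5 kb (107235818 to 107307330). By 100 kb steps, the wt covered bases ranged from 753 (107200000 to 107300000) to 11905 (107100000 to 107200000), and those of ΔIkE120 cells from 542 to 10867 in the same steps.

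Across the region fold enrichment was low for these lists. Of 67 wt peaks 61 lay under the median fold enrichment of all wt peaks, 3.04, and of 65 ΔIkE120 peaks 58 lay under that of all ΔIkE120 peaks, 3.16. The median was 2.33 in the region in wt and 2.50 in ΔIkE120 cells. The median −log10 q was 3.02 against 4.12 over the list in wt cells, and 3.13 against 4.47 in ΔIkE120 cells. Fold enrichment is relative to a background the peak caller set, so these values do not rank sites by the amount of acetylated histone.

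Peaks next to the outer bounds were as follows. The first peak inside the lower bound lay 16.5 kb from it in wt and 16.3 kb in ΔIkE120 cells, with fold enrichments of 2.48 and 2.73. The last peak below it lay 4.7 kb away in wt cells (106994750 to 106995265, fold enrichment 3.29) and 65.5 kb away in ΔIkE120 cells (106934010 to 106934508, fold enrichment 2.55). The last peak inside the upper bound lay 949 bases from it in wt and 983 bases in ΔIkE120 cells. Above the upper bound the first peak lay 3.3 kb away in wt cells (108103312 to 108103876, fold enrichment 2.58). In ΔIkE120 cells it lay 78.3 kb away, next to the start of *Setd3*, the next protein-coding gene on this side (108178336 to 108179275, fold enrichment 3.74).

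Both genotypes were then compared site by site. Together the lists gave 79 sites, of which 47 had a peak in both lists, 18 in wt cells only and 14 in ΔIkE120 cells only. Of the shared sites, 41 paired 1 wt with 1 ΔIkE120 peak, 4 had 1 wt peak split into several ΔIkE120 peaks, and 2 had several wt peaks under 1 ΔIkE120 peak. Of the bases under a peak in either list, 58.5% were under a peak in both, against 64.2% over the whole lists.

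Without a ΔIkE120 peak were 18 of 67 wt peaks, 26.9% (95% exact binomial interval 16.8 to 39.1), against 25.6% of all wt peaks. Without a wt peak were 14 of 65 ΔIkE120 peaks, 21.5% (12.3 to 33.5), against 13.6% of all ΔIkE120 peaks. The intervals cover counting error only. When the wt list was cut by −log10 q to the 29902 peaks of the ΔIkE120 list, which was kept whole, wt peaks alone were lost and the order of the shares turned, with 26.3% of 57 wt peaks (15.5 to 39.7) and 30.8% of 65 ΔIkE120 peaks (19.9 to 43.4), against 18.6% and 17.7% over those lists. Without the peaks under the median −log10 q of each list they were 25% of 20 wt peaks (8.66 to 49.1) and 33.3% of 21 ΔIkE120 peaks (14.6 to 57.0), against 19.9% and 7.69%. Those are peaks whose counterpart was itself left out by this cut. In the full lists all the peaks kept had a counterpart. Peaks without one reached a −log10 q of at most 3.30 in wt and 3.60 in ΔIkE120 cells, under the medians of 4.12 and 4.47. The share for ΔIkE120 cells and its place relative to wt thus depended on the peaks used.

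Peaks of 1 list only were shorter and had a lower −log10 q. Their median length was 295 bases in wt and 288 bases in ΔIkE120 cells, against 738 and 636 bases for peaks with a counterpart. Their median −log10 q was 2.34 in wt and 2.31 in ΔIkE120 cells, against 3.90 and 3.67. Over the whole lists the medians were likewise 315 against 778 bases and 2.15 against 5.79 in wt, and 288 against 720 bases and 2.04 against 5.39 in ΔIkE120 cells. By fold enrichment they were not lower in the region, with medians of 2.408 against 2.298 in wt and 2.71 against 2.31 in ΔIkE120 cells, while over the whole lists they were, with 2.80 against 3.21 and 2.80 against 3.26. They held 13.1% of the wt and 10.3% of the ΔIkE120 covered bases. The highest −log10 q among them was 3.30 for wt and 3.60 for ΔIkE120 peaks.

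Their distance to the other list varied. Within 2 kb of a peak of it were 7 of the 18 wt peaks and 5 of the 14 ΔIkE120 peaks, or 38.9% and 35.7%, against 28.2% and 39.9% over the whole lists. Over 10 kb away were 4 and 7, or 22.2% and 50%, against 46.8% and 34.4%. In wt cells the highest −log10 q was at 107778832 to 107779091, 285 bases from a ΔIkE120 peak, followed by 107617510 to 107617749 with 2.86 and 107131072 to 107131585 with 2.80. In ΔIkE120 cells it was at 107123229 to 107123575 inside the largest cluster, 1065 bases from a wt peak. That was followed by 107707185 to 107707416 with 3.13, which stood 15254 bases from any wt peak, and by 107022243 to 107022521 with 2.91. The farthest from the other list was the ΔIkE120 peak at 107307331 to 107307559, 38.4 kb from a wt peak, chosen for mention after its value was seen.

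The bases under peaks were 45306 in wt and 42288 in ΔIkE120 cells, or 4.12% and 3.84% of the region, a ratio of ΔIkE120 to wt of 0.933. Mean fold enrichment over the peaks was 2.37 in wt and 2.48 in ΔIkE120 cells. Over the whole lists the ratio of covered bases was 0.879. Over 913 windows of the same length with at least 10000 wt bases, the ratio had a median of 0.876 and quartiles of 0.821 and 0.934. The ratio of the region was thus at the upper quartile of these windows. It crossed 1, at 1.03, when the wt list was cut to the size of the ΔIkE120 list, against 0.942 over those lists. It was also 1.03 when the peaks of each list under its median −log10 q were left out. The direction of the ratio of the region thus depended on the peaks used.

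By position, the ratio of ΔIkE120 to wt covered bases was 1.10 upstream of the gene, 0.893 within 2 kb of its start, 0.794 in its body and 0.944 downstream. Covered bases in the body were 4793 in wt and 3804 in ΔIkE120 cells, with median fold enrichments of 1.77 and 2.05. Within 2 kb of the start they were 1701 and 1519, with medians of 1.82 and 1.77. Upstream they were 2026 and 2234, with medians of 3.196 and 3.33, and downstream the medians were 2.40 and 2.59. None of these directions held in every setting. When the lower-ranked peaks of each list, those under its median −log10 q, were left out, the ratio was 1.39 in the body and 1.03 downstream, and with the wt list cut to the size of the other it was 1.04 and 1.03. With 5 kb in place of 2 kb around the start, it was 1.07 at the start and 0.966 upstream. The 1.39 in the body rested on few peaks, a wt peak of 1193 bases and ΔIkE120 peaks of 1120 and 533 bases. The last of these overlapped a wt peak of 1022 bases that was left out, with a −log10 q of 3.46.

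Where 1 wt peak overlapped 1 ΔIkE120 peak, fold enrichment was nearly equal. The log2 ratio of ΔIkE120 to wt had a median of 0.06 over the 41 pairs (quartiles −0.05 and 0.11), against 0.04 over all 22698 pairs (−0.07 and 0.14). It was above 0 in 24 pairs and below 0 in 17, or above 0 in 58.5%, against 59.6% of all pairs. No pair was 1.5 fold higher or lower in ΔIkE120 cells, a size reached by 0.194% of all pairs for higher and 0.106% for lower values. The extremes were 0.31 at 107812370 to 107813267, with fold enrichments of 2.80 in wt and 3.47 in ΔIkE120 cells, and −0.16 at 107752872 to 107753414, with 2.42 and 2.16. These 2 pairs were chosen after their values were seen.

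Against the rest of the genome the region held many called peaks for its few genes. Of 2465 windows of the same length laid end to end along the chromosomes, 97.8% had fewer wt covered bases and 98.3% fewer ΔIkE120 covered bases. The median window had 5054 and 4388. None of the 709 windows with at most 2 protein-coding genes, the number in this region, held as many bases in either list, a comparison chosen after the data were seen. Since the region was itself chosen for its peaks, its rank describes it and tests nothing.

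The stretch from the 3′ end of *Bcl11b* to the next protein-coding gene, 798.3 kb long, held 47 wt and 45 ΔIkE120 peaks over 32635 and 30514 bases. Of 15746 genes with a strand in the promoter table and a free stretch downstream, it ranked 2 by covered bases in each list, and it is shared with *Gm52008*, which borders it on the other side. Genes without an entry in that table were not ranked, a limit set after a fuller ranking, in which *Bcl11b* stood lower, had been seen. Without regard to strand or that table, it ranked 3 in each list among all 19697 stretches between neighbouring protein-coding genes, a comparison added after the data were seen. The stretch between *Myc* and *Gsdmc* on chromosome 15 (61990362 to 63775970) then ranked 2, with 36538 wt and 30673 ΔIkE120 bases over 1785.6 kb. Above both was that of *Dad1* on chromosome 14 (52541357 to 54235484), a stretch of 1694.1 kb that holds gene segments of the T cell receptor alpha and delta chains, which were not counted as protein-coding genes here. It had 73403 wt and 53550 ΔIkE120 bases. Of 285 stretches downstream of genes in the promoter table that were at least as long as that of *Bcl11b*, the median held 0 bases in either list.

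From start to end, *Bcl11b* itself had 6191 covered bases in wt and 4973 in ΔIkE120 cells, which ranked it 258 and 306 among 21887 protein-coding genes. The 3 genes closest to it in log2 covered bases over both libraries were *Jdp2*, an AP-1 family repressor, with 6272 and 5050, *Tmem131* with 6287 and 4838, and *9530077C05Rik* with 6005 and 5067. Gene lengths differed, with 93743 bases for *Bcl11b* and 41223, 147426 and 56126 bases for the others.

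The genes that act on or beside *Bcl11b* were read at their promoters. Of the regulators that act on *Bcl11b* in T cell commitment, all 11 with a start (*Notch1*, *Gata3*, *Tcf7*, *Runx1*, *Runx3*, *Cbfb*, *Tcf12*, *Tcf3*, *Lef1*, *Myb* and *Ikzf1*) had a peak in both lists, against 47.5% of all protein-coding genes with a start in wt and 47.0% in ΔIkE120 cells, and *Ets1* was not analysed here. Fold enrichment at *Tcf7*, a high mobility group factor downstream of Notch, was 1.77 in wt and 1.81 in ΔIkE120 cells, near the values at *Bcl11b*. At *Gata3* it was 2.35 and 2.51, and at *Notch1* 2.15 and 2.17. At *Cbfb*, the common partner of Runx factors, it was 5.82 and 5.66. The median over the list was 2.72 in wt and 2.60 in ΔIkE120 cells. *Ikzf1*, whose enhancer was deleted, had 2.18 and 2.45 at the best of 2 wt and 3 ΔIkE120 peaks at its starts, of 2332 and 2125 bases. Over all matched pairs of the lists, 59.6% likewise had the higher fold enrichment in ΔIkE120 cells. The paper reports decreased H3K27ac around the *Ikzf1* promoter, though less than around the deleted enhancer. That was read from signal tracks and not from the fold enrichment of single peaks, so the directions cannot be compared directly.

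Of the T cell genes used from the DN to the DP stage, 12 of 13 had a peak in both lists, again beside 47.5% and 47.0% of all genes. The exception was *Il2ra*, which encodes the interleukin 2 receptor alpha chain. Away from its start, peaks covered 3122 wt and 1689 ΔIkE120 bases of that gene. The median fold enrichment of this list was 2.81 in wt and 2.87 in ΔIkE120 cells. Single genes of the list went both ways. *Cd3e*, a subunit of the T cell receptor complex, had 3.17 and 2.68, and *Cd3g* 2.54 and 2.23. *Rag2* had 2.54 and 3.03, and *Zap70* 2.87 and 3.34. *Cd2*, *Thy1* and *Cd4* were not analysed here. The 9 NuRD genes with a start, among them the chromatin remodeller *Chd4* and the deacetylase *Hdac2*, all had a peak in both lists, against the same shares of all genes, with a median fold enrichment of 4.33 in wt and 4.58 in ΔIkE120 cells. *Hdac1* was not analysed here.

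Genes of progenitors and of the natural killer and innate programme, which fall as *Bcl11b* comes on or rise without it, were read in the same way. Of 13 with a start, *Kit*, *Id2*, *Nfil3* and *Tbx21* had a peak in both lists, against 47.5% of all genes in wt and 47.0% in ΔIkE120 cells. At *Kit*, a receptor of early progenitors, fold enrichment was 3.63 in wt and 4.17 in ΔIkE120 cells. At *Nfil3* it went the other way, with 3.87 in wt and 3.74 in ΔIkE120 cells. At *Id2* it was nearly equal, with 3.199 and 3.217. At *Tbx21*, which encodes T-bet, it was 3.16 and 4.50 at the best peak, a single wt peak of 1537 bases and the stronger of 2 ΔIkE120 peaks, of 761 bases. *Flt3*, *Lyl1*, *Tal1*, *Bcl11a*, *Hhex*, *Mef2c*, *Gfi1b*, *Cd34* and *Ncr1* had none within 1 kb of a start in either list. Elsewhere in the gene, peaks covered 4258 wt and 3798 ΔIkE120 bases of *Flt3*. They covered 810 and 694 bases of *Lyl1*, 745 and 470 of *Gfi1b*, and 396 and 0 of *Bcl11a*. *Lmo2*, *Spi1*, *Zbtb16*, *Il2rb* and *Klrd1* were not analysed here. No gene of these lists had a promoter peak in 1 genotype alone, as had 1.02% of all genes in wt and 0.555% in ΔIkE120 cells.

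The *Bcl11b* promoter is shown because a wt peak covered all of it and a ΔIkE120 peak part of it. The sequence is the RefSeq promoter on GRCm38.p6, minus strand, of 300 bases around the start, written 5′ to 3′. Letters of factors that act on *Bcl11b* were searched on both strands, with TGTGGT for Runx proteins, AGATAA for Gata proteins, CTTTGA for Tcf7 and Lef1, CAGCTG for the E proteins, CGGAAG for the Ets family and TGGGAA for Ikaros. Capitals mark the only match.
*Bcl11b*, chr12:108003365-108003664: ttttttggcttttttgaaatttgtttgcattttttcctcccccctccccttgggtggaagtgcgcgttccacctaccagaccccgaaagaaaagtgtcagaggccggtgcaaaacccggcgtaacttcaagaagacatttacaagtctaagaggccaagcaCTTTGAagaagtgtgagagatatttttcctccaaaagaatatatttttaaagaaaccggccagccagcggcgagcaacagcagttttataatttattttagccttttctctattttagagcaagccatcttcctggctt

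All 300 bases of the *Bcl11b* window were under the wt peak, and 170 of them under a ΔIkE120 peak. CTTTGA occurred once in it, starting 89 bases before the start, and the other letters did not occur in this window. Of 32851 promoter windows of the same length, the Tcf7 and Lef1 letters occurred in 16.0%, those of Runx in 16.8%, Gata in 11.2%, E proteins in 16.3%, Ets in 16.9% and Ikaros in 25.6%. The *Bcl11b* window had a GC content of 43.0% and 9 CpG dinucleotides, against medians of 52.7% and 7 over all windows. A match is a description of the letters and not of a bound site.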

How the data were processed

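H3K27ac ChIP-seq of wt and ΔIkE120 P5424 cells was analysed from 1 peak list per library, grouped by the sample labels. The 4C libraries of the series were not used, since their tables cover another chromosome. Per the labels, the submitters' processing notes name GRCm38, Bowtie2 2.3.4.3, Bowtie 1.0.0, MACS2 2.1.1 and deepTools 3.2.1. An input is named in the methods, but peak calling settings and depth are not given in the sources used here, so the depth is unknown. The authors deposited, for each peak, a score that follows its −log10 q. The deposited fold enrichment is a ratio to the peak caller's background. The deposited −log10 p-value and −log10 q-value were not compared between lists as levels of the mark.

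Peaks sharing at least 1 base were counted as shared. Fold enrichment was compared over pairs in which each peak overlapped only the other. Zones were set at 2 kb from the *Bcl11b* start, peaks were joined within 10 kb, and promoters were read within 1 kb of a start. Starts and the promoter sequence came from the RefSeq promoter table and genes from RefSeq, both on GRCm38.p6. Of 73 listed genes 57 had a start. Shares of peaks carry 95% exact binomial intervals, for counting error only. Named were all annotated genes of the region, the peaks nearest the *Bcl11b* start, the 5 peaks of highest −log10 q per list, the longest peak of each zone, the 3 strongest peaks without a counterpart per list, pairs past 1.5 fold, the 5 clusters with most wt bases, the 3 genes nearest in covered bases and the 3 with most bases in the stretch downstream. The members and the gene lists were chosen with earlier results of these data known. Overlap functions were tested on simulated lists. Python 3.11.15, numpy 2.4.6 and scipy 1.17.1 were used.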

Additional observations from a re-analysis of the deposited data

How the results depend on the processing

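No paired analysis was possible because each genotype had 1 library. A ratio counted as moved when it changed by more than 0.0564, the semi-interquartile range of the ratio over windows of the same length, a rule chosen for want of replicates. A share counted as moved outside its 95% binomial interval, a count when it changed by over 1.5 times, and a log2 ratio when it changed by over the semi-interquartile range of all pairs. The limit for log2 ratios, which results counted as main ones and the class of 2 ratios by position were revised after a first set of alternatives had been seen. When the peaks of each list under its median −log10 q were dropped, the region kept 20 wt and 21 ΔIkE120 peaks in 16 clusters. The ΔIkE120 to wt ratio of covered bases was then 1.03 over the region, 1.02 upstream of *Bcl11b*, 0.766 at its start, 1.39 in its body and 1.03 downstream. The B cell and ES cell genes with a promoter peak fell to 0 in both lists. The T cell precursor genes with one fell from 9 to 7 in wt and 8 in ΔIkE120 cells. The T cell genes of the DN to DP stages fell from 12 to 10 and 11. Regulators of *Bcl11b* fell from 11 to 10 in ΔIkE120 cells and stayed at 11 in wt cells. With lists of equal number, for which the wt list alone was cut, the ratio was 1.03 over the region, 1.04 in the body and 1.03 downstream. With 1 kb around the start its ratio was 0.836, and with 5 kb it was 1.07 at the start and 0.966 upstream. Joining within 20 kb gave 18 clusters. Joining within 5 kb gave 42, against 31 as reported. Of 68 such values, 49 stayed within these limits, among them the log2 ratio of matched peaks and the rank among windows. Many of the 49 were promoter counts of the gene lists, and some values could not change. The ΔIkE120 list was kept whole with lists of equal number, and the window around the start does not reach the downstream zone. The 49 are thus no measure of stability. The shares of peaks without a counterpart also stayed within the limits, but their intervals are wide. Counted between the cut lists, the ΔIkE120 share was 33.3% without the peaks under the median and 30.8% with lists of equal number. It was 21.5% in the full lists, and the wt shares after these cuts were 25% and 26.3%. The median cut left out counterparts too: all the peaks it kept overlapped a peak of the other full list. With an overlap of 50% of the peak the shares were 31.3% in wt and 26.2% in ΔIkE120 cells. In the 5 clusters with most wt bases the ratio of 0.885 was 1.09 without the peaks under the median and 0.934 with lists of equal number, alternatives chosen after seeing the data. For the ratios that crossed 1, the cause was not tested. The depth is unknown, so whether peaks near the calling threshold in 1 list lie just under it in the other cannot be told.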
